A study of Rattus norvegicus with 16 samples.

Results

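Notch receptors, their ligands and the Hey and Hes target genes were followed in rat lung through hypoxia, estradiol and receptor blockade. The set holds 10 genes, chosen by symbol: the receptors Notch1, Notch3 and Notch4, the ligands Jag1, Jag2 and Dll4, and the targets Hey1, Hey2, Heyl and Hes1. Earlier results of these data were known when the set was chosen, so its counts beside shares of all genes are a description. Each of the 10 had exactly 1 probe set assigned to it alone, so all 10 were found among the 14506 genes with a value, and no filter removed any. The lungs came from male Sprague-Dawley rats, 4 per group by the protocol, and were measured on 16 arrays, 4 per group by the labels. The normoxia group is named as untreated controls, although the treatment field of 1 of its 4 arrays, replicate 4, says hypoxia. The hypoxia group spent 2 weeks in a hypobaric chamber at 362 mmHg, a pressure that matches 10% oxygen at sea level. The hypoxia+estradiol group had, beside the same hypoxia, subcutaneous pumps releasing 17β-estradiol at 75 µg/kg/day for 3 weeks. The hypoxia+estradiol+fulvestrant group also received fulvestrant, which blocks the nuclear estrogen receptors, given by daily injection at 3 mg/kg/day. Whether untreated rats carried empty pumps is not stated, fulvestrant was not given without estradiol, and estradiol was not given in normoxia. RNA was taken from homogenates of the whole right lung after the vessels had been flushed, so fewer cells of a type and less RNA per cell cannot be told apart.

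Notch receptors sit in the cell membrane and are switched on by ligands of the Jagged and Delta-like families on a neighbouring cell. The receptor is then cut, and its inner part enters the nucleus, joins the DNA-binding protein Rbpj and turns on repressors of the Hey and Hes families. In blood vessels Dll4, Notch1 and Notch4 act mainly in endothelium, where they restrain sprouting and support arterial identity, while Notch3 is the main receptor of smooth muscle cells and pericytes and is known for its role in pulmonary hypertension.

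The promoters of 3 of the target genes are shown because they are where the nuclear step of the pathway acts. A promoter window, 250 bases before to 50 after the annotated start, was matched in RefSeq (build GRCr8) for 8 of the 10 members and was not matched for Dll4 and Hey1. The windows below are at chr1:28640850-28641149 on the plus strand for Hey2, chr11:84212996-84213295 on the minus strand for Hes1 and chr5:140793021-140793320 on the plus strand for Heyl. Capitals mark TGGGAA, the core sequence bound by Rbpj, or its reverse complement TTCCCA.
Hey2: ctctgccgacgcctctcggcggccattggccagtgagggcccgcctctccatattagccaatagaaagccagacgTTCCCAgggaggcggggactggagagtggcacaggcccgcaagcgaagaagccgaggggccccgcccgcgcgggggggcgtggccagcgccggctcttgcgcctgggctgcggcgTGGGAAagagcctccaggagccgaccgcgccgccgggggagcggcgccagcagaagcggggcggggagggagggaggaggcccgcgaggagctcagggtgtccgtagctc
Hes1: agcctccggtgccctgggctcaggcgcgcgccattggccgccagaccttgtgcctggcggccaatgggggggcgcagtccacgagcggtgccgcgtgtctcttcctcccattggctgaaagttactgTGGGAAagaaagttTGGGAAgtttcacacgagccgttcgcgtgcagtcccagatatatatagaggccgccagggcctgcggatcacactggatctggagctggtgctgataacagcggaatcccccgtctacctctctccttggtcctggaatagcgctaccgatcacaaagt
Heyl: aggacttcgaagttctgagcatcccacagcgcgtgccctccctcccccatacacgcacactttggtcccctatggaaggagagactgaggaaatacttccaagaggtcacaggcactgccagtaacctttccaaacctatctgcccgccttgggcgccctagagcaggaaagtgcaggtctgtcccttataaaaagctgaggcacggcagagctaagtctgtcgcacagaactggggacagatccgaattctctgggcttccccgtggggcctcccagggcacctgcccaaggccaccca
Hey2 held the core once on each strand, beginning at positions -175 and -60 relative to the start, and Hes1 held 2 copies on the gene's own strand, beginning at -123 and -109. Heyl held none in this window. TGGGAA was present on either strand in 25.7% of all 33469 RefSeq windows, against 4 of the 8 members with a window (Notch3, Notch4, Hey2 and Hes1). ACGTG, the core of the hypoxia response element, was found in the Notch3 window alone among the 8, and in 19.3% of all windows. The palindromic estrogen response element, GGTCA and TGACC with any 3 bases between, was found in 0 of the 8 and in 0.0269% of all windows. These letters are a description of the windows and not evidence of binding.

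Values are log2 signals, so a difference of 1 is a doubling, and levels were compared between groups for each gene and never between genes. Array medians lay between 7.69 and 7.77. The defining markers of lung tissue gave high signals, with the 5 markers of alveolar type 2 cells at mean log2 signals of 11.75 to 13.93, and Pecam1 and Cdh5 of endothelium at 12.61 and 12.29. On the first principal component of all genes normoxia replicate 4, the array with conflicting labels, lay at -19.66, within the other normoxia arrays (-20.79 to -11.99) and apart from the rest (-2.05 to 16.27). Hypoxia+estradiol replicates 2 and 3 stood apart on the second component (-25.44 and -22.31, against -5.18 to 7.85 for all others).

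Hypoxia against normoxia compares lungs after low oxygen with those of the controls, and the ligands moved in opposite directions. Dll4, the Delta-like ligand of endothelium, fell 1.94-fold, while the Jagged ligands Jag2 and Jag1 rose 1.76-fold and 1.25-fold. Of the 10 members 2 passed as higher, 1 as lower and 7 did not pass (limma, adjusted p under 0.05), where 5.63% of all genes passed, 3.21% higher and 2.43% lower. Hypoxia and normoxia arrays were fully separate for 4 of the 10 members (Dll4, Jag1, Jag2 and Notch3), against 12.1% of all genes. The median size of change, without regard to sign, was 0.30 for the members and 0.09 for all genes.

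Dll4 read 11.57, 11.37, 11.42 and 11.46 in the normoxia arrays and 10.21, 10.71, 10.52 and 10.54 in hypoxia. Every hypoxia array was lower than every normoxia array, and the change was -0.96 (SE 0.11, adjusted p = 9.23e-05, limma). Jag2, a ligand with roles in epithelium and endothelium, read 9.04, 9.03, 9.41 and 9.49 in normoxia and 10.16, 10.04, 10.21 and 9.83 in hypoxia. All 4 hypoxia arrays were above the highest normoxia array, with a change of 0.82 (SE 0.15, adjusted p = 0.0033, limma). Jag1, a ligand active between endothelium and smooth muscle, read 10.07, 9.98, 10.20 and 10.15 in normoxia and 10.44, 10.49, 10.39 and 10.37 in hypoxia. These groups were also separate, by a smaller 0.32 (SE 0.06, adjusted p = 0.00709, limma). Leaving out any single array of the 2 groups kept all 3 ligand calls (8 fits). All 3 ended when normoxia replicate 4 was counted as hypoxia (adjusted p = 0.0899 for Dll4, 0.0564 for Jag2 and 0.108 for Jag1). That array's Dll4 of 11.46 and Jag1 of 10.15 lay among the other normoxia arrays. Its Jag2 of 9.49 was the highest in normoxia, though below every hypoxia array.

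No receptor passed at the threshold in hypoxia. Notch3, the receptor of vascular smooth muscle, missed it narrowly, with 10.79, 10.76, 10.94 and 10.94 in normoxia and 11.30, 11.18, 11.44 and 11.04 in hypoxia. The Notch3 groups did not overlap, and the change was 0.39 (SE 0.11, adjusted p = 0.0507, limma). Without hypoxia replicate 4 it passed (0.45, adjusted p = 0.034), and in no other fit with a single array left out. Notch1, which in vessels acts in endothelium, was 11.12 ± 0.06 in normoxia and 10.84 ± 0.21 in hypoxia (mean ± SD, n = 4), a change of -0.28 (adjusted p = 0.0783, limma), with hypoxia replicate 3 at 11.10 inside the normoxia range of 11.06 to 11.18. Without that array Notch1 passed (-0.37, adjusted p = 0.0113), and in no other fit with a single array left out. Notch4, largely confined to endothelium, changed by -0.01 (95% interval -0.35 to 0.33, adjusted p = 0.982). The spread of Notch4 in hypoxia was set by replicate 4, at 8.97 against 9.78 to 9.90 in the other 3 arrays.

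The target genes did not pass in hypoxia. Hey2, a repressor needed for arterial and heart development, read 8.39, 8.95, 8.77 and 8.49 in normoxia and 9.31, 8.81, 9.11 and 9.05 in hypoxia, a change of 0.42 (95% interval -0.00 to 0.84, adjusted p = 0.246, limma) with overlapping groups. Its close relative Hey1 differed by -0.27 (95% interval -0.54 to -0.00, adjusted p = 0.241), and Heyl, which is prominent in vascular smooth muscle, by 0.22 (-0.03 to 0.48, adjusted p = 0.314). Hes1, a widely expressed Notch target, differed by -0.12 (-0.44 to 0.19, adjusted p = 0.693). These intervals do not show that the targets stayed level.

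**Figure D1:**
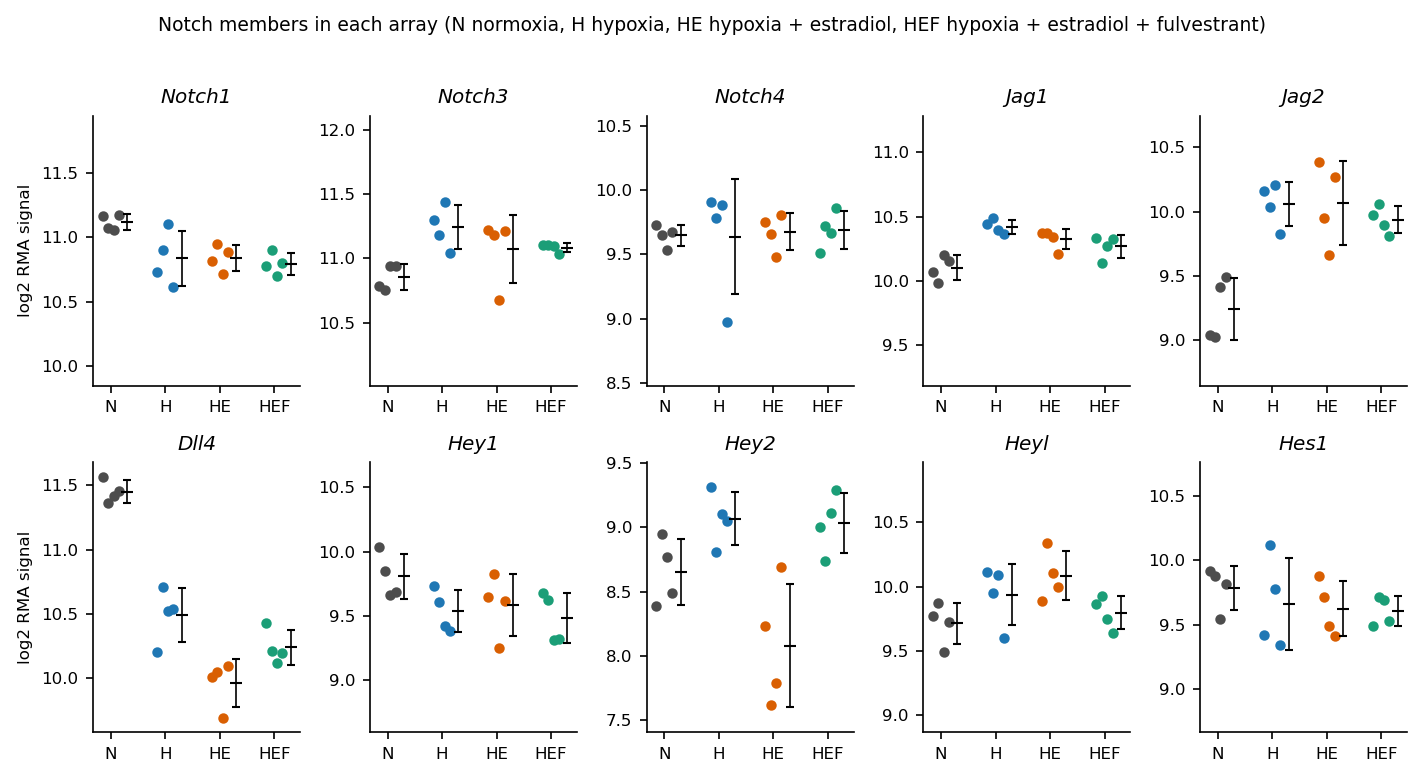
Log2 RMA signal of the 10 members in each of the 16 arrays, by group (N normoxia, H hypoxia, HE hypoxia+estradiol, HEF hypoxia+estradiol+fulvestrant), with the group mean and SD as a bar; every panel spans the same log2 range. Dll4 in normoxia (11.37 to 11.57) lies above every other array, Jag2 in normoxia (9.03 to 9.49) lies below every other array, and the Hey2 group mean is lowest in hypoxia+estradiol (8.08).

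Hypoxia+estradiol against hypoxia compares lungs with and without estradiol treatment while oxygen was low. Hey2 fell 1.98-fold and Dll4 fell a further 1.45-fold, and the other 8 members did not pass. So 2 of 10 members passed, both lower, against 0.772% of all genes in either direction, 0.31% higher and 0.462% lower. The same 2 members were the ones whose groups did not overlap, against 6.65% of all genes. The median change over the members was -0.02, as over all genes (-0.02).

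Hey2 read 8.23, 7.62, 7.79 and 8.69 with estradiol against 8.81 to 9.31 in hypoxia alone. All 4 estradiol arrays were lower than every hypoxia array, replicate 4 only slightly, and the change was -0.99 (SE 0.20, adjusted p = 0.0362, limma). Dll4 read 10.01, 10.05, 9.69 and 10.10 with estradiol against 10.21 to 10.71 in hypoxia alone. Again the groups were separate, with a change of -0.53 (SE 0.11, adjusted p = 0.0362, limma). Dll4 thus fell in both steps, and the groups share the hypoxia arrays between the 2 comparisons.

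These calls lay close to the threshold. The Hey2 call ended in 6 of the 8 fits that left out 1 array: without hypoxia replicate 1 (adjusted p = 0.12), 2 (0.0645), 3 (0.0534) or 4 (0.0697), and without hypoxia+estradiol replicate 2 (0.0892) or 3 (0.106). The Dll4 call ended in 5 of the 8: without hypoxia replicate 2 (0.0876), 3 (0.0545) or 4 (0.0716), and without hypoxia+estradiol replicate 2 (0.073) or 3 (0.102). The 2 arrays that stood apart on the second component, hypoxia+estradiol replicates 2 and 3, gave the 2 lowest Hey2 values. Without both, the Hey2 change was -0.61 (SE 0.19, adjusted p = 0.341) and the Dll4 change -0.44 (SE 0.12, adjusted p = 0.268). Both calls also ended in a fit of only the 2 groups compared (0.176 for Hey2 and 0.193 for Dll4) and with normoxia replicate 4 counted as hypoxia (0.121 and 0.124).

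**Figure D2:**
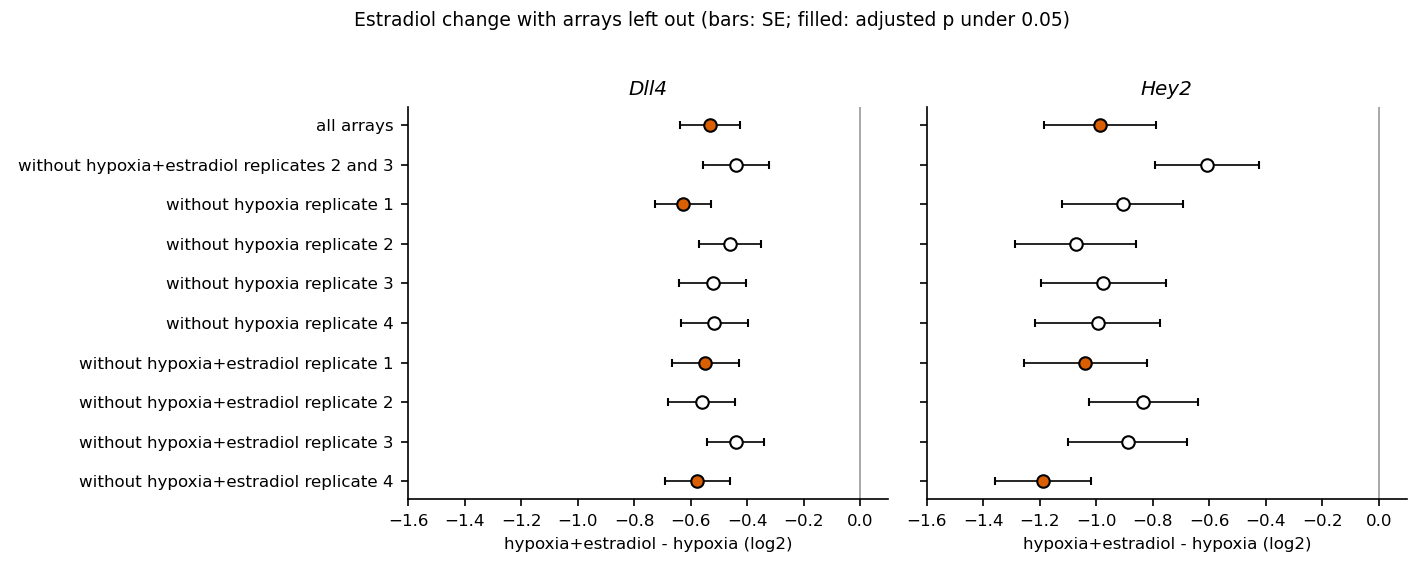
Change of Dll4 and Hey2 between hypoxia+estradiol and hypoxia in log2 units, with all arrays and with arrays left out; bars are the standard error and filled points have an adjusted p under 0.05. The Hey2 change lies between -1.19 and -0.83 with 1 array left out and is -0.61 without both replicates 2 and 3 of the estradiol group; Dll4 lies between -0.63 and -0.44.

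Among the other targets under estradiol, Hey1 changed by 0.05 (95% interval -0.22 to 0.32), Heyl by 0.15 (-0.11 to 0.40) and Hes1 by -0.04 (-0.36 to 0.28), with adjusted p between 0.583 and 0.928. Jag1 differed by -0.10 (-0.23 to 0.04) and Jag2 by 0.01 (-0.30 to 0.32), with limma adjusted p of 0.484 and 0.984. For the receptors the changes were 0.00 for Notch1 (-0.18 to 0.19), -0.17 for Notch3 (-0.40 to 0.06) and 0.04 for Notch4 (-0.30 to 0.37). The Notch3 value carries hypoxia+estradiol replicate 3, which read 10.68 against 11.18 to 11.22 in the other 3 arrays.

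Marker genes of other cells moved in the same comparison. Of 8 pericyte markers 2 fell with estradiol, Rgs5 (-0.76) and Pdgfrb (-0.35), and 0 rose; the mean of the list above normoxia was 0.21 to 0.44 in the hypoxia arrays and -0.08 to 0.16 in the estradiol arrays. Of 13 endothelial markers 1 fell, Robo4 (-0.39), with list means of 0.03 to 0.15 in hypoxia and -0.27 to 0.11 with estradiol; the lowest, -0.27, was replicate 3, the array with the lowest Dll4. All 6 neutrophil markers rose, led by Mmp8 (1.94), S100a8 (1.74), Retnlg (1.73) and S100a9 (1.61), with list means of 1.35 and 1.34 in estradiol replicates 2 and 3 and 0.40 and 0.41 in replicates 1 and 4. The part of these shifts in the Hey2 and Dll4 results was not tested.

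**Figure D3:**
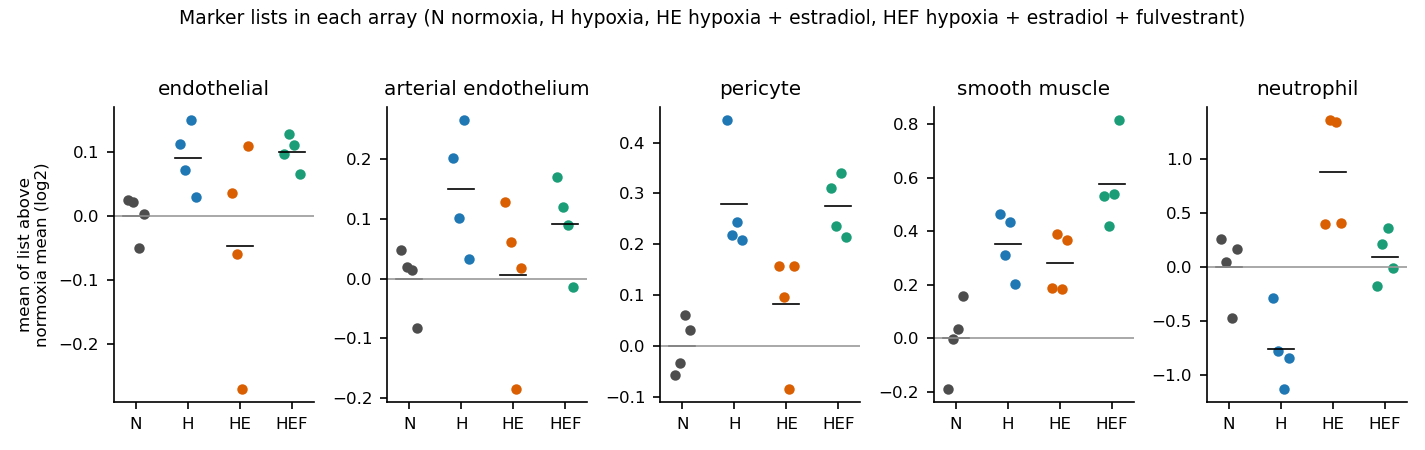
Mean log2 signal of 5 marker lists above the normoxia mean, 1 point per array and a line at the group mean, for the same 4 groups. The pericyte list is lower in the estradiol arrays (-0.08 to 0.16) than in the hypoxia arrays (0.21 to 0.44), and the neutrophil list is highest in estradiol replicates 2 and 3; each panel has its own scale.

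Adding fulvestrant to estradiol asks whether receptor blockade altered the estradiol values. It shares the hypoxia+estradiol arrays with the comparison of estradiol against hypoxia, so opposite changes in these comparisons are not independent. By limma 0 of 10 members passed, where 0.0483% of all genes did (0.0207% higher and 0.0276% lower), and 3 members (Hey2, Dll4 and Heyl) had an unadjusted p under 0.05, against 14.8% of all genes. Hey2 with fulvestrant read 9.01, 8.74, 9.11 and 9.29 against 7.62 to 8.69 without it, a change of 0.95 (SE 0.20, 95% interval 0.53 to 1.37, adjusted p = 0.0638). The groups did not overlap for Hey2. Of the fits with a single array left out, Hey2 passed only without hypoxia+estradiol replicate 4 (1.16, adjusted p = 0.00759). Without fulvestrant, Hey2 was 7.62 and 7.79 in replicates 2 and 3, and 8.23 and 8.69 in replicates 1 and 4. With replicates 2 and 3 of that group left out, 0 genes passed in this comparison, so Hey2 did not pass. Dll4 with fulvestrant read 10.43, 10.21, 10.12 and 10.19 against 9.69 to 10.10 without it. These groups were also separate, by 0.28 (95% interval 0.05 to 0.50, adjusted p = 0.235). Hey2 and Dll4 were the 2 of 10 members with separate groups here, against 9.05% of all genes. Heyl differed by -0.29 (95% interval -0.54 to -0.03, adjusted p = 0.275), with overlapping groups. The other 7 members differed by -0.13 to 0.01, with adjusted p from 0.745 to 0.982. Marker lists differed in the same comparison, although by limma 0 of 8 pericyte, 0 of 11 smooth muscle and 0 of 6 neutrophil markers passed (4, 7 and 4 at an unadjusted p under 0.05). The pericyte list mean above normoxia was -0.08 to 0.16 with estradiol alone and 0.22 to 0.34 with fulvestrant added, and the smooth muscle list mean was 0.18 to 0.39 and 0.42 to 0.81. The neutrophil list mean was 0.40 to 1.35 and -0.18 to 0.36. None of these 3 lists overlapped between the groups. Endothelial markers gave 0 calls of 13 by limma, with 5 at an unadjusted p under 0.05. The endothelial list mean overlapped, at -0.27 to 0.11 with estradiol alone and 0.07 to 0.13 with fulvestrant added. The part of all these lists in the Hey2 and Dll4 values was not tested.

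Hypoxia with both drugs against hypoxia alone gave no call among the members or among all 14506 genes (0% of genes, limma), with an unadjusted p under 0.05 for 2 of 10 members and 6.96% of all genes. Hey2 was at 9.04 ± 0.23 with both drugs and 9.07 ± 0.21 in hypoxia alone (mean ± SD, n = 4), a difference of -0.03 with a 95% interval of -0.45 to 0.39. Dll4 differed by -0.26 (-0.48 to -0.03, adjusted p = 0.679). Jag1 was the 1 member whose groups did not overlap, against 5.03% of all genes, with a difference of -0.15 (adjusted p = 0.666).

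**Figure D4:**
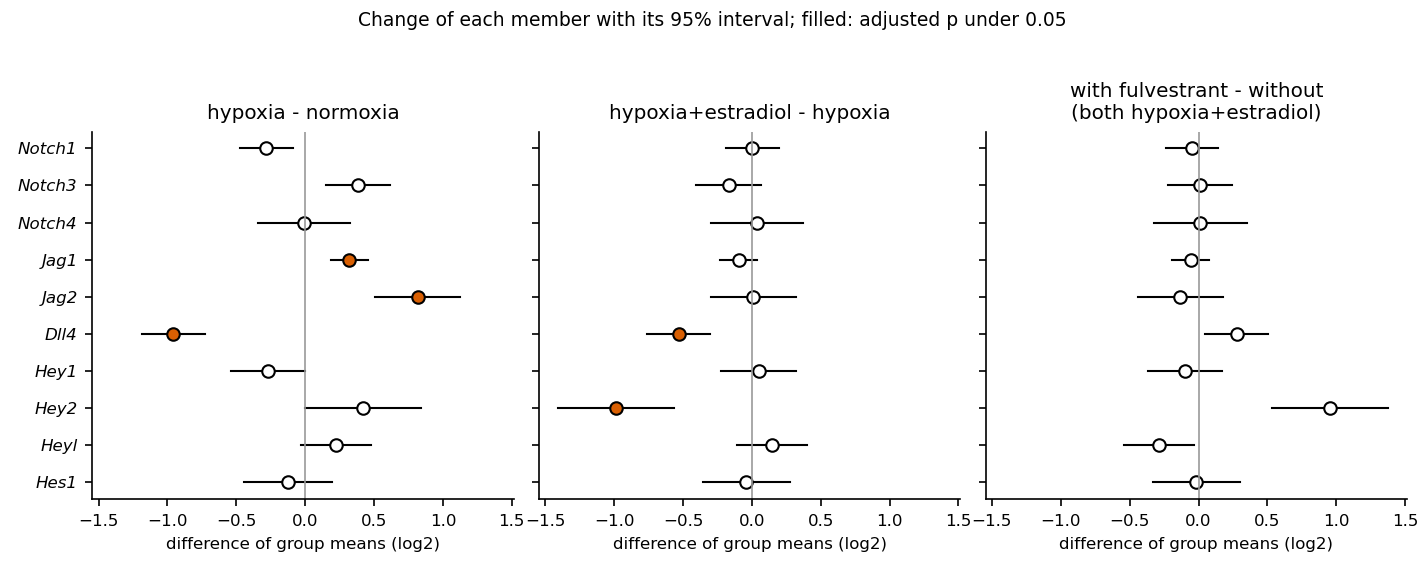
Difference of group means in log2 units for the 10 members in 3 comparisons, with 95% intervals from the limma fit; filled points have an adjusted p under 0.05. Dll4 (-0.96), Jag1 (0.32) and Jag2 (0.82) are filled in hypoxia against normoxia, Dll4 (-0.53) and Hey2 (-0.99) with estradiol, and none with fulvestrant added.

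Set against normoxia, both estradiol groups had lower Dll4 and higher Jag2. These comparisons share the normoxia arrays with the first. In hypoxia+estradiol Dll4 was lower by 2.81-fold (change -1.49, SE 0.11, adjusted p = 8.58e-07), whereas Jag2 was 1.77-fold higher (0.83, SE 0.15, adjusted p = 0.00415). So 2 of 10 members passed, 1 higher and 1 lower, against 5.21% of all genes (2.87% higher and 2.34% lower), and 5 did not overlap, against 9.21% of all genes. Hey2 was at 8.08 ± 0.48 against 8.65 ± 0.26 (mean ± SD, n = 4), a difference of -0.57 (adjusted p = 0.121). Of the fits with a single array left out, Hey2 passed only without hypoxia+estradiol replicate 4 (-0.77, adjusted p = 0.0149). That replicate, at 8.69, lay within the normoxia range of 8.39 to 8.95. The lowest Hey2 values were 7.62 and 7.79 in hypoxia+estradiol replicates 2 and 3, with 8.23 in replicate 1. Jag1 differed by 0.22 (adjusted p = 0.0547) and passed without normoxia replicate 3 (0.046) or hypoxia+estradiol replicate 4 (0.0302). Notch3 differed by 0.22 (adjusted p = 0.322) and passed without hypoxia+estradiol replicate 3, at 0.35 (0.0319). Heyl differed by 0.37 (adjusted p = 0.0928) and Notch1 by -0.28 (0.0919), and neither passed, although their groups did not overlap. The Jag2 call ended in a fit of only these 2 groups (0.0508). Endothelial markers went both ways in this comparison, with 3 of 13 higher and 5 lower. Their part in the member changes was not tested.

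In hypoxia+estradiol+fulvestrant Dll4 was 2.32-fold below normoxia (change -1.21, SE 0.11, adjusted p = 9.77e-06), whereas Jag2 was 1.62-fold higher (0.69, SE 0.15, adjusted p = 0.0144). Again 2 of 10 members passed, against 2.96% of all genes (1.97% higher and 0.993% lower), and 4 did not overlap, against 12.3%. The Jag2 call ended without normoxia replicate 1 (adjusted p = 0.0592) or 2 (0.0534) and with normoxia replicate 4 counted as hypoxia (0.0609). Notch1 differed by -0.32 (adjusted p = 0.067) and passed in a fit of only these 2 groups (0.0176). Hey1 differed by -0.32 (0.223), Notch3 by 0.23 (0.339) and Hey2 by 0.39 (0.373). Endothelial markers gave 3 of 13 higher and 1 lower, and their part was not tested.

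Over the 4 groups the order of Dll4 was normoxia (11.45 ± 0.09), hypoxia (10.50 ± 0.21), fulvestrant (10.24 ± 0.13) and estradiol (9.96 ± 0.19; mean ± SD, n = 4). Normoxia differed from its neighbour, while hypoxia and fulvestrant, and fulvestrant and estradiol, did not pass as pairs. Hey2 ran from hypoxia (9.07 ± 0.21) through fulvestrant (9.04 ± 0.23) and normoxia (8.65 ± 0.26) to estradiol (8.08 ± 0.48), and no neighbouring pair passed. Jag2 was close in the 3 hypoxic groups (10.06 ± 0.17, 10.07 ± 0.33 and 9.94 ± 0.10) and at 9.24 ± 0.24 in normoxia. Jag1 ran from hypoxia (10.42 ± 0.05) to normoxia (10.10 ± 0.10), with both estradiol groups between.

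The rest of the pathway held 48 listed genes, of which 39 were measured. By limma 0 of the 39 passed in hypoxia, with estradiol or with fulvestrant added, where 5.63%, 0.772% and 0.0483% of all genes did. With estradiol and with fulvestrant added, 0 is near the share of all genes and is no result about the pathway. In these 3 comparisons the medians over the 39 genes were 0.04, -0.04 and 0.02, against 0.03, -0.02 and 0.00 over all genes. Rbpj, the DNA-binding partner of the receptors, changed by -0.04 in hypoxia (adjusted p = 0.812) and by -0.08 with estradiol (0.67). The 5 enzymes that add sugars to the receptors, among them the Fringe genes Lfng and Mfng, ranged from -0.02 to 0.07 in hypoxia and from -0.08 to -0.02 with estradiol. The 6 measured genes of receptor cleavage ranged from 0.01 to 0.18 in hypoxia, and the 5 other Hes genes from -0.01 to 0.12. Against normoxia 2 of the 39 passed in hypoxia+estradiol, where 5.21% of all genes did, and 1 of the 39 with fulvestrant added, where 2.96% did, so both counts were near the background and are no result about the pathway. Aph1a, a subunit of the gamma-secretase that cuts the receptor, was higher in hypoxia+estradiol (0.21, adjusted p = 0.0256). Dtx4, a Deltex ubiquitin ligase, was lower in that group (-0.46, adjusted p = 0.0175). Numb, an inhibitor of Notch, was higher with fulvestrant added (0.32, adjusted p = 0.00833). Rbpj, Lfng and Mfng were named after their values were seen.

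Genes of arterial endothelium, where Notch acts, split in hypoxia. Of 11 measured genes 2 rose and 1 fell against normoxia, where 3.21% and 2.43% of all genes did, and the median was 0.30. Efnb2, the ephrin that marks arteries and is a known Notch target, fell (-0.77, SE 0.14, adjusted p = 0.0033), and any link to Dll4 was not tested. The chemokine Cxcl12 (0.75, SE 0.12, adjusted p = 0.00182) and the gap junction gene Gja4 (0.52, SE 0.10, adjusted p = 0.0071) rose. With estradiol and with fulvestrant 0 of the 11 passed, where 0.772% and 0.0483% of all genes did. Efnb2 was at 10.66 in hypoxia, 10.78 with estradiol and 10.65 with fulvestrant, against 11.43 in normoxia. Of 5 measured genes of venous endothelium 0 passed in any of the 6 comparisons, where 0% to 5.63% of all genes did.

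**Figure D5:**
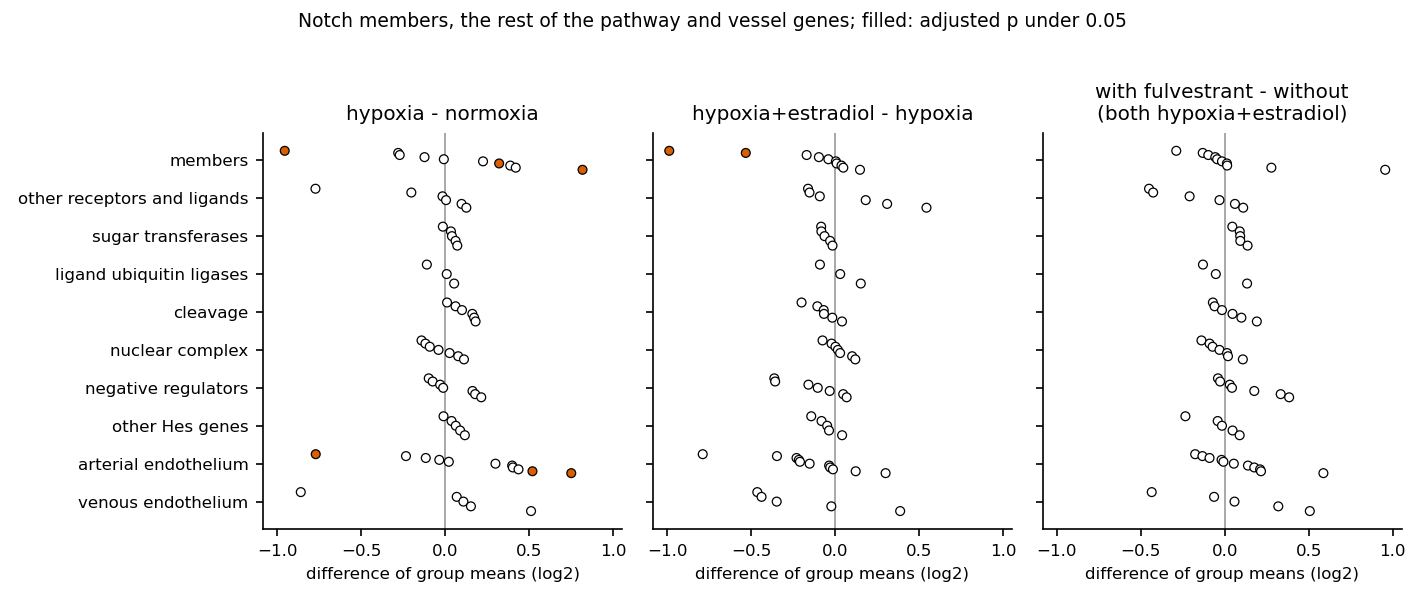
Difference of group means in log2 units for the 10 members, 39 other Notch pathway genes in 7 lists and 16 genes of arterial and venous endothelium, 1 point per gene; filled points have an adjusted p under 0.05. Outside the members the filled points are Efnb2, Gja4 and Cxcl12 in hypoxia against normoxia.

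Endothelial, smooth muscle and pericyte markers also moved in hypoxia. Of 13 endothelial markers 3 rose and 2 fell (Robo4 0.80, Egfl7 0.73 and Emcn 0.69 higher, Clec14a -0.60 and Tek -0.35 lower). Of 11 smooth muscle markers 4 rose (Des, Cnn1, Smtn and Tpm2, by 0.52 to 0.75) and of 8 pericyte markers 3 rose (Trpc6 0.66, Cspg4 0.42 and Pdgfrb 0.28), and 0 of either fell. The smooth muscle list mean above normoxia was 0.20 to 0.46 in hypoxia and -0.19 to 0.16 in normoxia. Of 5 T cell markers 4 fell (Il7r, Trat1, Cd3d and Cd3e, by -0.78 to -0.62), and of 5 alveolar type 1 markers 1 fell, Hopx (-0.22). Under estradiol the T cell marker Il7r rose (0.90). Cardiac muscle markers, relevant because Hey2 is a heart gene and rat lung veins carry heart muscle, gave 0 calls of 7 in any comparison. Of all genes 0% to 5.63% passed, by comparison. The cardiac list mean ranged from -1.23 to 1.85 within normoxia alone. The part of these markers in the member changes was not tested.

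The genes whose profile was most like each called member were found by Pearson correlation over all 16 arrays, which differ by group, so shared group differences are part of each r. For Dll4 these were Cyp4b1 (r = 0.95), Gstm7 (0.94) and Fzd8 (0.93). All 3 fell in hypoxia, Cyp4b1 by -0.31 (adjusted p = 0.0193), Gstm7 by -0.37 (0.0091) and Fzd8 by -1.004 (0.000582). For Jag2 they were the glycolytic gene Pfkl (0.94), the basement membrane collagen Col4a1 (0.94) and N4bp3 (0.93). For Jag1 they were Septin9 (0.86), Adgrg1 (0.85) and the complement gene C1qa (0.85). For Hey2 they were Elk3 (0.92), Cilk1 (0.92) and Pcdh18 (0.92). Elk3, an ETS factor expressed in endothelium, changed by -0.41 with estradiol (adjusted p = 0.06) and by 0.45 with fulvestrant added (0.0638), and neither passed. Both changes share the hypoxia+estradiol arrays.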

How the data were processed

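Right lungs of rats in 4 groups were measured on 16 arrays, 4 per group. The authors deposited log2 values, made with RMA and Partek per the submitters' processing notes, with versions, settings and genome build not given in the sources used here. RMA aligns arrays and compresses dim signals, which would hide a shift common to most genes. Of 29214 probe sets 15310 had exactly 1 gene symbol, 323 several and 13581 none; the brightest per gene left 14506 genes, 14480 with a RefSeq gene ID. Groups came from sample titles. Replicate numbers follow submission order, which also follows the groups, and no batch is labelled.

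Differences were tested with limma 3.58.1 in R 4.3.3, as 1 model of 4 group means over all 16 arrays, with Benjamini-Hochberg adjustment over all genes and a threshold of 0.05, and checked on simulated data. Standard errors and 95% intervals are from that fit. Arrays carry no counts, so their number limits the precision. The protocol names 4 rats and the labels 4 arrays per group; where arrays were not separate rats, p-values would measure technical spread.

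The text names all 10 members, called genes of the Notch list, up to 4 called genes of each other list in each of the first 3 comparisons (Tek is named beyond this rule), and the 3 genes most like each called member. The members and lists were chosen with earlier results of these data known. The alternatives were other scalings, a filter on dim genes, mean probe sets, fits of only the groups compared, trended robust moderation, the relabelled array, and arrays left out.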

Additional observations from a re-analysis of the deposited data

Results flagged for a closer look

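In 3 of the 40 groups formed by a member and a condition, 1 array lay far from the other 3, by Dixon's criterion (critical value 0.829), which chance meets in about 1 group in 20. Notch3 in hypoxia+estradiol was lowest in replicate 3, at 10.68, with the other arrays at 11.18 to 11.22. Notch3 in hypoxia+estradiol+fulvestrant was lowest in replicate 4, at 11.03, with the other arrays at 11.10 to 11.11, a small distance in a group with little spread. Notch4 in hypoxia was lowest in replicate 4, at 8.97, with the other arrays at 9.78 to 9.90.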

How the results depend on the processing

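The 10 members in 6 comparisons gave 60 results, of which 9 were called. Under the alternatives run, the called results kept their sign in 72 of 72 fits with 1 array left out and lost the call in 13. In 72 of 72 other fits they also kept it, and lost the call in 11. Many of these other fits could not change a sign. The dim-gene filter, fits of only the groups compared and trended robust moderation leave the group means as they are. Mean probe sets changed nothing because each member had exactly 1. Leaving out hypoxia+estradiol replicates 2 and 3 could not change the sign in comparisons without that group. No paired analysis was possible because replicate numbers follow submission order and pair nothing. With normoxia replicate 4 counted as hypoxia, 0 members were called in hypoxia against normoxia (3 otherwise), 0 with estradiol against hypoxia (2) and 1 with both drugs against normoxia (2), and the counts of all genes were 40 (817), 0 (112), 351 for hypoxia+estradiol against normoxia (756) and 100 for both drugs against normoxia (430). Fits of only the groups compared called 0 members with estradiol against hypoxia and 1 against normoxia (2), and 5, 0, 216 and 2 genes with estradiol against hypoxia, with fulvestrant added (7), with estradiol against normoxia, and with both drugs against hypoxia (0). Without hypoxia+estradiol replicates 2 and 3, 0 members and 0 genes were called with estradiol against hypoxia, 0 genes with fulvestrant added, and 325 with estradiol against normoxia. With fulvestrant added, 21 genes were called with median centring (57.1% of them higher, against 42.9%), 33 with quantile normalization again (69.7%), 28 without the dimmest 25% of genes and 44 with trended robust moderation. The median of all genes was followed only under median centring and quantile normalization, and neither moved it by 0.1. Both settings align arrays that RMA had already aligned, so they could not show a shift common to most genes.

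With 1 array left out, members called ranged from 3 to 4 in hypoxia against normoxia, 0 to 2 with estradiol against hypoxia, 0 to 1 with fulvestrant added, 2 to 4 with estradiol against normoxia and 1 to 2 with both drugs against normoxia. The counts of all genes ranged from 428 (without normoxia replicate 1) to 986, from 3 (without hypoxia replicate 2) to 355 (without hypoxia+estradiol replicate 4), from 0 to 331 (without hypoxia+estradiol replicate 4), from 384 (without normoxia replicate 1) to 887, and from 238 (without normoxia replicate 1) to 374; with both drugs against hypoxia both counts stayed at 0. Each of these fits had fewer arrays, and the cause of these moves was not tested. Notch3 in hypoxia passed in fits of the 2 groups alone (adjusted p = 0.048), without dim genes (0.0423) and with trended robust moderation (0.0419). It also passed without hypoxia+estradiol replicates 2 and 3 (0.00851), arrays outside that comparison. Jag1 in hypoxia+estradiol against normoxia passed without dim genes (0.0398) and with trended robust moderation (0.0454). Notch1 with both drugs against normoxia passed with trended robust moderation (0.0498). The number of arrays, 4 per group, limits what could be detected.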

Other observations

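Some pathway genes that did not pass had values worth a second look, and were picked after their values were seen. The comparisons with estradiol and with fulvestrant added share the hypoxia+estradiol arrays, so opposite changes there are not independent. Dll1, a Delta-like ligand, changed by 0.00 in hypoxia, by 0.31 with estradiol (adjusted p = 0.265) and by -0.45 with fulvestrant added (0.121). Notch2, the receptor outside the set, changed by -0.20 (adjusted p = 0.115), 0.18 (0.235) and -0.21 (0.179) in the same 3 comparisons. Dtx4 changed by -0.36 with estradiol (adjusted p = 0.112) and by 0.38 with fulvestrant added (0.101). Nrarp, a Notch target that feeds back on the pathway, changed by -0.36 with estradiol (adjusted p = 0.141) and by 0.03 with fulvestrant added (0.945).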
